A study of Mus musculus with 26 samples.

Results

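The binding of Isl1 was compared between day 5 and day 6 of the differentiation of mouse embryonic stem (ES) cells into spinal motor neurons. Every event of the 4 deposited Isl1 ChIP-exo lists was included, 2 lists per day. They held 6369 of the 497003 binding events and peaks listed in the series and came from 4 of its 26 samples. ChIP-exo digests precipitated DNA with an exonuclease that stops at the crosslinked protein, which places an event on the genome more finely than sonication alone. The lists held 2260 events for day 5 replicate 1, 1079 for day 5 replicate 2, 1470 for day 6 replicate 1 and 1560 for day 6 replicate 2.

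Both groups were ES cells of the line that the labels call iCre in their growth protocol and Ainv15 in another field, and no label gives them an induced transgene. On day 2 both received retinoic acid at 1 uM together with SAG, which activates the Hedgehog pathway, at 0.25 uM. The Notch pathway inhibitor DAPT was given at 5 uM on day 4 to the cells harvested on day 5, and on days 4 and 5 to those harvested on day 6. The day of harvest and the second dose of DAPT therefore cannot be told apart. No label says that replicates came from separate cultures, so the spread between them may be technical. The file name of day 6 replicate 1 has a mark that differs from the one in the other 3 file names, and the labels do not explain it. Leaving out day 6 replicate 1 is named below where it moved a value by over 1.5 times.

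Isl1 is a LIM-homeodomain transcription factor that appears as motor neurons leave the cell cycle. In newborn motor neurons it joins Lhx3, another LIM-homeodomain factor, through the adaptor Ldb1, and this complex activates genes of motor neuron identity. Lhx3 is lost from most motor neuron types as they mature, while Isl1 remains in many. Onecut factors are also present in young motor neurons. The comparison asks whether Isl1 occupies the same places on both days.

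RNA, with 1 library per day and so no test, gave Isl1 0.0985, 3.68, 88.0 and 116 FPKM (a value per transcript length and sequencing depth) on days 0, 4, 5 and 6. The labels give days 0 and 4 to another cell line than days 5 and 6. The level of Lhx3 was 24.1 FPKM on day 5 against 3.90 the day after, and its relative Lhx4 had 22.8 against 10.4. Ldb1 was at 26.5 and 22.1, and Onecut1 at 12.5 and 14.0. The list of Isl1, its partners and coregulators had 21 measured members, of which 3 passed a 2-fold increase on day 6 and 6 a 2-fold decrease, with a median difference of -0.11 in log2(FPKM + 1). The higher members were Lmo1 and Lmo3, LIM-only proteins that bind Ldb1, and Ssbp4, of a family that also binds it. The lower ones were Lhx3, Lhx4, Ebf2, Ebf3, Neurog2 and Neurod4, the last 4 being factors of newborn neurons. Over all 11164 measured genes, 6.57% were at least 2-fold higher and 6.19% lower, with a median of -0.07. Marker counts here are over genes found once in the RNA values, 9 of the 11 listed for motor neurons. Of these 9 motor neuron markers, 8 reached 1 FPKM on day 5 and 9 on day 6. No ES cell marker of 4 did so on either day, and of 6 progenitor markers 6 did on day 5 and 2 on day 6. The summed FPKM of the progenitor markers was 56.6 on day 5 and 12.3 on day 6. That of 6 neuron markers was 470 and 1211, of which Nefl alone was 195 and 800. Nefl and Stmn2 were at least 2-fold higher on day 6. The other 4 stayed within 2-fold, with Elavl3 (26.9 and 25.0) and Rbfox3 (2.71 and 2.10) lower and Elavl4 and Nefm higher on day 6. The part of these lists in the binding differences below was not tested. In bulk samples, fewer cells of a type and less signal per cell cannot be told apart. Most glial and interneuron markers lay below 1 FPKM on days 5 and 6. Of 6 glial markers 1 reached it, Mbp, with 11.5 and 9.90 FPKM, and of 9 interneuron markers 2 and then 1. Markers of the ventral midline and V3 domain were not low in this sense, as 3 and then 4 of 4 reached 1 FPKM. Nkx2-2 had 8.86 and 5.18 FPKM, Foxa2 2.80 and 3.33, Shh 1.05 and 3.23, and Sim1 0.529 and 3.24. The presence of other cell types was not tested.

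The strength of an event is its IP value, the number of precipitated reads assigned to it, and the lists also hold a scaled control value and a q-value. Read totals of the libraries were not among the sources used here, so IP was compared by rank within a list rather than in size between lists. The median IP was 17.2 and 20 in the day 5 libraries and 13 and 16.4 in the day 6 libraries, and the highest was 328, 211, 199.6 and 197.3. Weak events therefore filled most of each list, and events of 10 to 20 reads carry a large counting error. The control value was 0 at 58.5%, 35.4%, 78.4% and 45.2% of the events, in the same order.

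The strongest event of each list shows the range of behaviours. The strongest of day 5 replicate 1, at chr5:29812636 (mm9, as are all positions), had an IP of 328 there, 178 in day 5 replicate 2 and 34.0 in day 6 replicate 2, with no event in day 6 replicate 1. The strongest of day 6 replicate 1, at chr9:46777267, had an IP of 199.6 there and 100.5 in day 6 replicate 2, and neither day 5 library listed an event within 100 bp. The strongest of day 6 replicate 2, at chr13:116738653, had 197.3 there and 41.1 in day 6 replicate 1, again with none on day 5. These 3 events were listed in both replicates of a day and missing from at least 1 library of the other. The strongest of day 5 replicate 2, at chr3:143861154, went another way. It had an IP of 211 over a control of 73.5, the library of the other day with the same replicate number had 138.6 over 53.7, and both replicate 1 libraries lacked it. It lay at no ATAC peak of day 5 or 6, and nor did the event at chr13:116738653.

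Replicates of a day shared more events than libraries of different days. Matched one to one within 100 bp, the day 5 libraries shared 528 events, 18.8% of their union, and the day 6 libraries 459, 17.9%. Of the 4 between-day pairs, day 5 replicate 1 shared 206 events (5.85%) with day 6 replicate 1 and 259 (7.27%) with day 6 replicate 2. Day 5 replicate 2 shared 132 (5.46%) with day 6 replicate 1 and 284 (12.1%) with day 6 replicate 2. Both within-day pairs lay above all 4 between-day pairs. The mean was 18.3% within days and 7.66% between them, a difference of 10.7 percentage points. The 4 libraries can be split into 2 pairs in only 3 ways, and the exact permutation p over these was 0.333, the smallest this design allows. Most of the events of a replicate were therefore not listed in the other replicate of the same day either: the shared events were 23.4% of day 5 replicate 1 and 48.9% of day 5 replicate 2, and 31.2% and 29.4% of the day 6 libraries.

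The position of matched events was close. The median offset lay between 15 and 21 bp over the 6 pairs, and 81.8% to 91.5% of matches were within 50 bp. Between 4 and 16 further matches per pair lay at 101 to 200 bp. The 100 bp window thus held nearly all matches, on the same day or across days.

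Agreement was higher among strong events in most searches, but nearly level for day 5 replicate 2 sought in its replicate. That search matched 60.0% of the 50 strongest, 57.2% of the 250 strongest and 51.2% of the 1000 strongest. Of the 250 strongest events of a library, between 51.2% and 77.2% were matched in the other library of the same day, and between 17.2% and 38.8% in a library of the other day. The means over pairs were 64.5% and 29.0%, a difference of 35.5 points (exact permutation over 3 splits, p = 0.333). Taking the 50 strongest raised these to 60.0% to 94.0% within days and 22.0% to 54.0% between days. Taking the 1000 strongest lowered them to 35.2% to 51.2% and 12.2% to 28.0%. At the weak end the ranges overlapped: of the 250 weakest events, 1.6% to 33.6% were matched within a day and 2.4% to 15.2% between days. List by list, only those of day 5 replicate 1 were matched less often in the replicate (1.6%) than in the day 6 libraries (2.8% and 2.4%). For the other lists the replicate gave the highest share, such as 33.6% against 7.2% and 15.2% for day 5 replicate 2. The within-day range lay above the between-day range at 50, 250, 500 and 1000 events, and the ranges overlapped at 25.

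**Figure D1:**
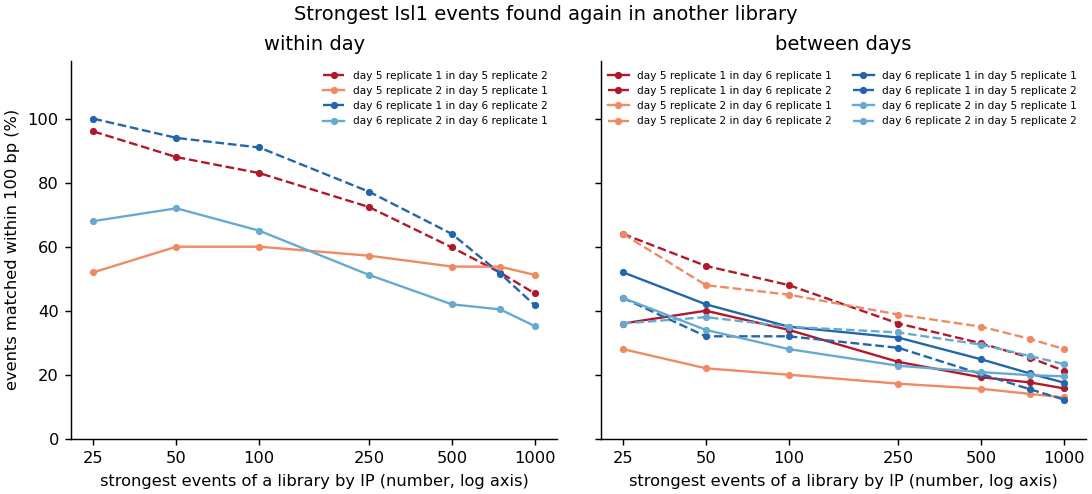
Share of the strongest Isl1 events of a library (number on the horizontal log axis) with a match within 100 bp in another library of the same day (left) or of the other day (right). Colour marks the library whose events were listed; solid lines show the search in a replicate 1 library and dashed lines in a replicate 2 library. At 250 events the within-day lines lie between 51.2% and 77.2% and the between-day lines between 17.2% and 38.8%.

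The 4 within-day searches were not alike. The 25 strongest events of day 6 replicate 1 and day 5 replicate 1 were matched in their replicates at 100% (95% exact binomial interval, counting error only, from 86.3%) and 96.0% (79.6% to 99.9%). Those of day 5 replicate 2 reached 52.0% (31.3% to 72.2%) and those of day 6 replicate 2 reached 68.0% (46.5% to 85.1%). Both replicate 2 libraries thus had strong events that the replicate 1 library of the day lacked, of which the event at chr3:143861154 was in both.

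A measured difference in the control values went with that pattern. At events matched between day 5 replicate 2 and day 6 replicate 2, the ratio of their control values had a median of 1.18 and quartiles of 1.15 and 1.22, and their control values had a Spearman rho of 0.922 over 284 events. In the other 5 pairs the upper quartile of this ratio was 2.90 to 3.97 times the lower, and the rho of the control values was 0.277 to 0.565. The sources used here do not say which control each list was called against. The strongest 250 events of day 5 replicate 2 lay within 100 bp of an ATAC peak of day 5 or 6 in 64.0% of cases, against 93.6% for day 5 replicate 1, 96.8% for day 6 replicate 1 and 85.2% for day 6 replicate 2. In day 5 replicate 2 the 250 weakest were more often at such peaks (76.4%) than the strongest, whereas the other 3 libraries had 53.2% to 71.2% among their weakest. A total of 107 sites were called in exactly these 2 replicate 2 libraries. Of these, 49.5% (39.7% to 59.4%) lay at open chromatin, and 65, or 60.7%, were also in the list of the library labelled Lhx3. Of the 54 sites not at open chromatin, 44 were in the list of that library. That library was made with a V5 tag antibody in an induced line on day 4, and the name of its file mentions Isl1. Control values were also compared with those of that library at matched events, as a ratio. Its quartiles were 2.83 and 3.67 for day 5 replicate 2, and 2.25 and 3.50 for day 6 replicate 2. They were wider apart for day 5 replicate 1 (4.86 and 17.6) and day 6 replicate 1 (7.80 and 19.0). The part of a shared control in the overlap of the 2 replicate 2 libraries, or in their overlap with the library labelled Lhx3, was not tested. Keeping only events within 100 bp of an ATAC peak of day 5 or 6 (an alternative chosen after seeing the data), the difference in union overlap between within-day and between-day pairs was 13.1 points, and that in the matched share of the 250 strongest was 39.4 points.

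At matched events the order of strength was also more alike within days. Spearman's rho of IP was 0.662 for the 528 events of the day 5 pair and 0.619 for the 459 of the day 6 pair. Across days it was 0.568 for day 5 replicate 1 with day 6 replicate 1 (206 events), 0.492 with day 6 replicate 2 (259), 0.368 for day 5 replicate 2 with day 6 replicate 1 (132) and 0.512 with day 6 replicate 2 (284). These are descriptions over sites that share their libraries. The within-day mean exceeded the between-day mean by 0.155 (exact permutation over 3 splits, p = 0.333). The order of the pairs turned when the fold over control replaced IP: the within-day mean was then 0.199 and the between-day mean 0.421, a difference of -0.22 (exact permutation, p = 0.667). The pair of replicate 2 libraries, whose control values ran together, had a fold rho of 0.866. Where the control was 0, the lists hold a fixed value in place of a fold. In the day 5 pair the control was 0 in a single library at 131 of the 528 matched events and in both at 68. In the day 6 pair these counts were 190 and 121 of 459, and in the pair of replicate 2 libraries 12 and 64 of 284. The fold rho therefore reflects control zeros as well as strength, and their part in the turned order was not tested.

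**Figure D2:**
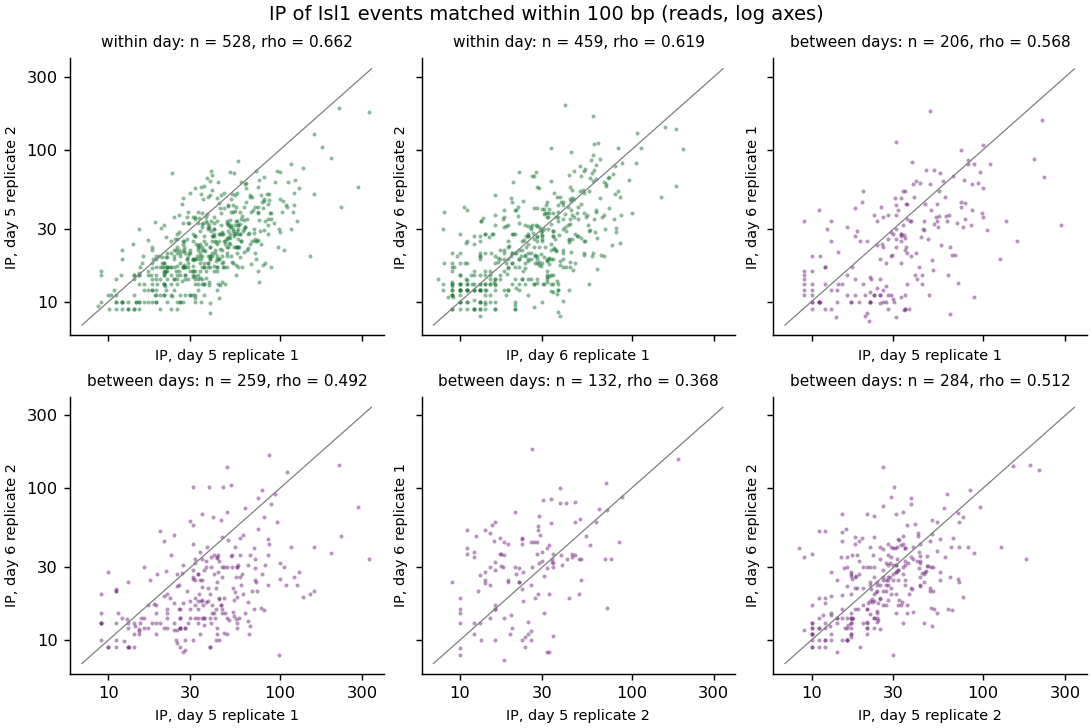
IP of Isl1 events matched within 100 bp for the 6 library pairs, on log axes in reads; each point is 1 matched event and the grey line marks equal values. The 2 within-day pairs (green) hold 528 and 459 points with rho of 0.662 and 0.619, and the 4 between-day pairs (purple) hold 132 to 284 points with rho of 0.368 to 0.568.

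Matched events were stronger than unmatched ones in each list. Between the day 5 libraries the matched events of replicate 1 had a median IP of 36.3 and the unmatched 14, while in replicate 2 the medians were 22 and 19. Between the day 6 libraries they were 26.9 and 11 in replicate 1 and 21 and 15 in replicate 2. The same order held for matches across days, where for example the 206 events of day 6 replicate 1 matched in day 5 replicate 1 had a median of 23.7 against 12 for the rest.

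Merging the events of all 4 lists within 100 bp gave 4605 sites, which served to separate 3 classes. The day 5 class (both day 5 libraries and neither day 6 library) held 350 sites, 7.6% of all, the shared class (all 4 libraries) 66 sites, 1.43%, and the day 6 class (both day 6 libraries and neither day 5 library) 310 sites, 6.73%. Their make-up is fixed by the calls, so the counts are a description. Of the sites called in both day 6 libraries, 30.8% were also called in at least 1 day 5 library. Single-library sites were 1460, 368, 844 and 761 for the 4 libraries in the order above. Without day 6 replicate 1, and so with a single day 6 library, the shared class held 149 sites and the day 6 class 1065.

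Shared sites ranked high. They had a median IP of 54.6 and 31.5 in the day 5 libraries and 37.9 and 31 in the day 6 libraries, and between 47.0% and 72.7% of them were among the 250 strongest events of a library. Sites of the day 5 class had medians of 34 and 20, with 27.4% and 21.4% among the strongest 250, and those of the day 6 class 22 and 20, with 33.2% and 25.2%. Single-library sites had medians of 11 to 17. The classes overlapped widely in strength: the IP of day 5 class sites ran from 8.7 to 174.4 in day 5 replicate 1, and that of day 6 class sites from 7.2 to 199.6 in day 6 replicate 1.

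The site with the best mean rank over the 4 lists was chr11:35357918. Its IP was 220.5 and 186.9 on day 5 and 156 and 141.8 on day 6, which placed it 4th and 2nd in the day 5 lists and 4th and 3rd in the day 6 lists. It lay at ATAC peaks of days 4, 5 and 6, at a p300 event of day 5 and at an event of the library labelled Lhx3. Next came chr8:107729852, with 109.9 and 71.3 on day 5 and 108 and 127.9 on day 6, and chr5:29947323, with 95.3 and 71.9 on day 5 and 71.2 and 59.8 on day 6. The site at chr8:107729852 had ranks of 20 and 25 on day 5 and 7 and 9 on day 6, and that at chr5:29947323 had ranks of 32 and 22 against 28 and 60, where the days overlapped. Of the 12 shared sites with the best mean rank, 12 lay at ATAC peaks of day 5 and of day 6, 9 at a p300 event of day 5 and 11 at an event of the library labelled Lhx3. Over all shared sites the shares within 100 bp were 89.4%, 86.4%, 68.2% and 50.0%, in that order.

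At the head of the day 5 class stood chr4:73150294, with an IP of 174.4 and 104.4 (ranks 6 and 9), and no event within 100 bp on day 6. It lay at ATAC peaks of days 4, 5 and 6 and at an H3K27ac peak of day 6, so the interval was open on the day when no Isl1 event was listed. The next, chr11:35357523, had 121.5 and 63.1 and lay at no ATAC peak. It was 395 bp from the strongest shared site. Then came chr1:53997594, with 111.1 and 61.2. Of the 8 best ranked sites of this class, 5 lay at an ATAC peak of day 5 and 5 at one of day 6, 6 at a p300 event of day 5 and 6 at an event of the library labelled Lhx3. Onecut1 of day 6 was at 2 of the 8. Over the whole day 5 class the shares within 100 bp were 81.4%, 44.3%, 36.6%, 33.4% and 13.7%, in that order.

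At the head of the day 6 class stood chr9:46777267, described above. It lay at ATAC and H3K27ac peaks of days 5 and 6 and at p300 events of both days, so these marks were already listed on the day without an Isl1 event. It was followed by chr5:49010603, with 106.2 and 81.3, and chr17:90605505, with 87.3 and 82.0. The site at chr3:80562866 was uneven, with an IP of 182 in day 6 replicate 1 and 57.8 in replicate 2. It lay at p300 and Onecut1 events of both days. Of the 8 best ranked sites of this class, 7 lay at an ATAC peak of day 5 and 8 at one of day 6, 4 at a p300 event of day 5, 4 at an Onecut1 event of day 6 and 1 at an event of the library labelled Lhx3. Over the whole day 6 class the shares within 100 bp were 64.8%, 86.1%, 34.2%, 56.1% and 2.90%, in that order.

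Within the shared class, ranks were compared between the days as percentiles of each list. Both day 6 values lay above both day 5 values at 15 of 66 sites (22.7%). They lay below both at 11 (16.7%) and overlapped at the other 40. Any of the 6 library pairs could hold the 2 highest values at a site, so some such sites arise without a change between days. Such a change was not tested. The strongest shift upward was at chr5:118979352, with an IP of 20 and 11 on day 5 and 53 and 52 on day 6, or percentiles of 56.5 and 14.7 against 95.2 and 94.9. It lay at events of p300 and Onecut1 on both days. The next, chr16:74217360, had 43 and 16 against 60 and 35, where the percentile of day 6 replicate 2 (85.3) fell below that of day 5 replicate 1 (86.9). At each of the 5 sites with the largest shift upward, day 5 replicate 2 had the lowest percentile, from 14.7 to 32.8. Day 5 replicate 1 had 56.5 to 96.9 at these sites. The largest shift downward by the mean, at chr15:3964015, rested on 1 library: its IP was 98 and 30 on day 5, 38 in day 6 replicate 1 and 8 in day 6 replicate 2, where the percentile of day 6 replicate 1 (90.2) lay between those of day 5. The site at chr16:21870291 ranked lower in both day 6 libraries, with an IP of 157 and 51 on day 5 (percentiles 99.7 and 93.5) and 25 and 21 on day 6 (77.2 and 62.6). None of the 5 sites with the largest shift downward, and 1 of the 5 upward, lay at an event of the library labelled Lhx3. Among all 66 shared sites, 33 did.

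Events of a library often came in tight groups. The share with another event of the same library within 1000 bp was 19.7% and 18.3% on day 5 and 18.0% and 21.5% on day 6. Most of these gaps were short: 9.34% and 7.60% of day 5 events and 11.2% and 13.4% of day 6 events had a neighbour within 100 bp. The mean share within 200 bp was 13.4% ± 0.265 (SD, n = 2) on day 5 and 17.8% ± 1.96 on day 6, a difference of 4.34 points with no overlap between the days (exact permutation, two-sided p = 0.333, the smallest possible). This window was singled out after seeing the data. Among the strongest 1000 events of each library the difference was 4.15 points and the days overlapped (exact permutation, p = 0.667). Within 1000 bp the days differed by 0.755 points (exact permutation, p = 1), less than the spread between replicates. Without day 6 replicate 2 the sign of that difference turned, to -0.969 points. The nearest gap in a library was 4 or 5 bp, which is inside the offset between replicates.

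**Figure D3:**
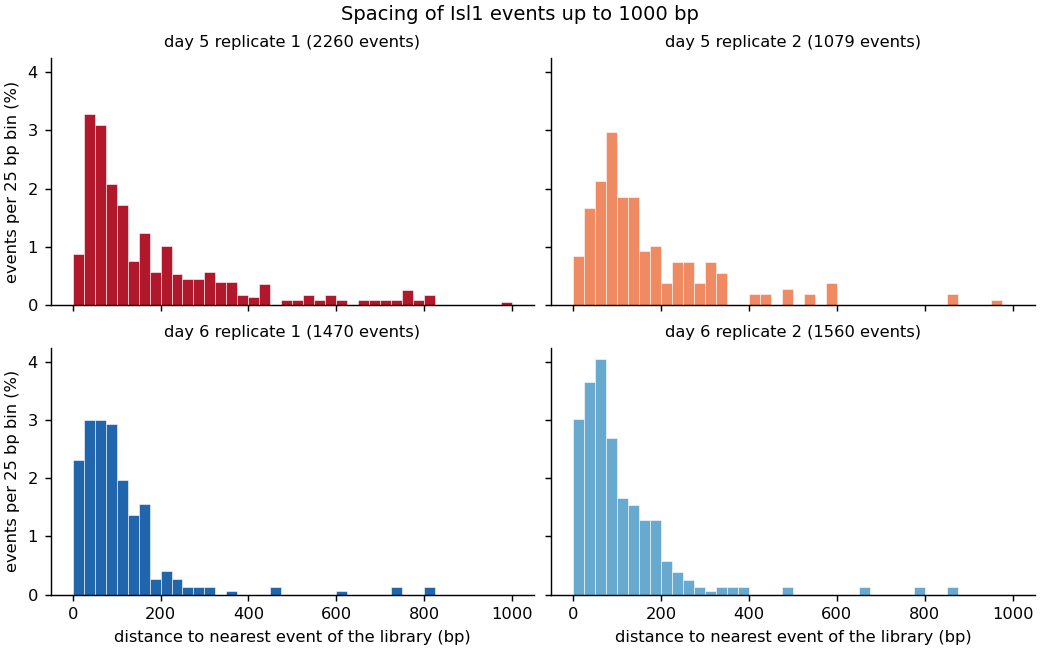
Distance from each Isl1 event to the nearest other event of its library, in bins of 25 bp up to 1000 bp; bar height is the percentage of all events of that library. In each library the highest bin ends at or below 100 bp, and the share within 100 bp is 9.34% and 7.60% on day 5 and 11.2% and 13.4% on day 6.

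Chaining events at gaps of up to 1000 bp gave 211 and 95 clusters in the day 5 libraries and 126 and 157 in the day 6 libraries. Of these, 20, 5, 13 and 21 held 3 or more events. Clustered events were stronger than lone ones, with median IP of 27.2 against 15, 24.5 against 20, 21.2 against 12 and 24.4 against 15. They were also matched in the replicate of the day more often: 35.9% against 20.3%, 58.4% against 46.8%, 45.3% against 28.1% and 39.7% against 26.6%. Strength and clustering were not separated here. Of adjacent pairs up to 200 bp apart, both events were matched in the replicate in 16.3%, 37.8%, 27% and 22.3%.

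The cluster with the most events in any list was at chr1:106392818-106393241 in day 5 replicate 1, with 6 events in 424 bp and a strongest IP of 24.9. Day 5 replicate 2 had 2 events there, up to 33.5, and neither day 6 library had one. In day 5 replicate 2 the largest cluster, at chr5:12365711-12366083, held 5 events in 373 bp. Over all 4 libraries it held 10 events, and the strongest IP was 284.9 and 95.2 on day 5 and 31.9 and 75.4 on day 6. No cluster of a day 6 library held more than 3 events. The one at chr17:63702291-63702486 held events of every library, with strongest IP of 86.2 and 46.7 on day 5 and 82.9 and 165.3 on day 6. Over gaps of up to 10000 bp, the region chr3:141159527-141167451 held 11 events, 5 of day 6 replicate 1 (up to 76.5) and 6 of day 6 replicate 2 (up to 53.0), and none of day 5. The region chr5:48571167-48573180 also held 11, with 3 and 4 on day 5 and 2 and 2 on day 6. Another day 6 group, at chr8:94186005-94194821, held 4 and 5 events of the day 6 libraries and 1 of day 5 replicate 2, at 54.0.

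Distances from day 6 events to day 5 had 2 parts. Within 100 bp of an event of either day 5 library lay 18.1% of the events of day 6 replicate 1 and 27.9% of those of day 6 replicate 2, or 23.0% ± 6.92 (SD, n = 2). Few more were found at middle distances: 21.2% and 29.8% lay within 1000 bp and 25.9% and 33.3% within 10 kb. The rest were far, with 45.0% and 49.6% within 100 kb and a median distance of 131 and 109 kb. To the other day 6 library, 33.9% and 32.4% lay within 100 bp, although that target held 1560 or 1470 events and the pooled day 5 target 3339, and the medians were 102 and 97.2 kb. The median moved with the length of the target list: from day 6 replicate 1 the median was 170 kb to day 5 replicate 1 and 502 kb to day 5 replicate 2.

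**Figure D4:**
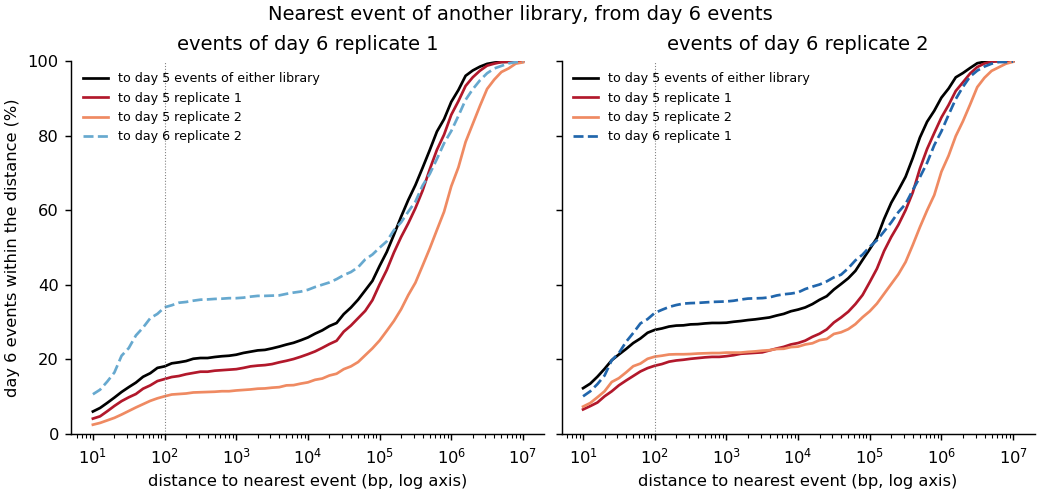
Cumulative percentage of the events of day 6 replicate 1 (left) and day 6 replicate 2 (right) that lie within a distance (log axis, bp) of the nearest event of another library; the dotted line marks 100 bp. The curves rise up to about 100 bp, are nearly flat to 10 kb and rise again, and at 100 bp the curve to the other day 6 library (33.9% and 32.4%) lies above that to day 5 events of either library (18.1% and 27.9%).

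Strong day 6 events were nearer to day 5 events. Of the 250 strongest, 42.4% in day 6 replicate 1 and 45.6% in replicate 2 lay within 100 bp of day 5, against 13.1% and 24.5% of the others. The medians were 23.1 and 3.08 kb against 151 and 122 kb. The 2 day 6 libraries differed more in their share near day 5 replicate 2, within 100 bp of which lay 10.1% of replicate 1 events and 20.7% of replicate 2 events, than near day 5 replicate 1, with 14.7% and 18.3%.

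By definition, sites of a day class had no event of the other day within 100 bp. Of the 310 day 6 class sites, 14 had any day 5 event within 1000 bp, 33 within 10 kb and 102 within 100 kb, and of the 350 day 5 class sites 14, 34 and 122 had a day 6 event at these distances. From day 6 class to day 5 class, 1 site lay within 1000 bp and 4 within 10 kb. The closest were chr1:66298289, with IP of 8.5 and 10.7 on day 6, and chr1:66298714, 425 bp away, with 52.0 and 32.0 on day 5. The others were 4033 to 4579 bp apart, such as chr7:78369206 (29.7 and 28.5 on day 6) and chr7:78364627 (80.1 and 34.6 on day 5). Over all events with none of the other day within 100 bp, 3.82% and 2.67% in the day 6 libraries and 3.05% and 3.72% in the day 5 libraries had one within 1000 bp, close to the 4.52% and 4% of the day 6 and day 5 classes.

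A pair of regions held sites of several classes. Around the strongest day 5 event, chr5:29812636, a day 5 class site lay at chr5:29813678 (46.4 and 51.2) and a weak day 6 class site at chr5:29823851 (14.0 and 28.0). Further along were shared sites at chr5:29947102 (39.7 and 29.1 on day 5, 48.8 and 35.2 on day 6) and chr5:29947323. A strong day 6 class site followed at chr5:29977296, with 56.2 and 88.5 on day 6 and an ATAC peak on both days. Around the best ranked shared site, the region from chr11:35268539 to chr11:35357918 held 13 sites. Beside the pair at its end it held a shared site at chr11:35343711 (55.3 and 17.3 on day 5, 36.7 and 38.9 on day 6) and a day 5 class site at chr11:35317985 (45.1 and 38.3). Chromosome 5 held 14 of the 66 shared sites and 286 of all 4605.

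The classes differed in the chromatin mapped at them, in maps that had 1 library each and were not tested. By overlap with the site position, ATAC peaks of day 5 lay at 40.3% (35.1% to 45.6%, exact binomial 95% interval) of day 5 class sites, 48.5% (36.0% to 61.1%) of shared sites and 35.5% (30.2% to 41.1%) of day 6 class sites. ATAC peaks of day 6 lay at 19.4% (15.4% to 24.0%), 51.5% (38.9% to 64.0%) and 44.8% (39.2% to 50.6%). Since the median deposited ATAC peak was 100 bp wide, a peak just beside the site does not count here. Within 100 bp of the site, the shares were 81.4%, 89.4% and 64.8% for day 5 and 44.3%, 86.4% and 86.1% for day 6. Both measures put day 6 ATAC peaks at fewer day 5 class sites than at shared or day 6 class sites.

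Taken with the 100 bp window, 146 day 5 class sites (41.7%) were open on both days and 139 (39.7%) on day 5 but not day 6. Of the day 6 class, 185 sites (59.7%) were open on both days and 82 (26.5%) on day 6 but not day 5. So 64.8% of day 6 class sites were at an ATAC peak on the day before both libraries listed Isl1 there. That share was not high for an Isl1 site of any class or none. It was 54.4% over all sites called in 1 library and 71.6% over all those called in 2. ATAC peaks of day 4 were at 21.1% of day 5 class, 19.7% of shared and 4.84% of day 6 class sites within 100 bp. By position the day 6 class share was 1.94%, and it was 3.13% without day 5 replicate 1 and 4.62% without day 6 replicate 2. DNase peaks of ES cells were at 0 of 350 day 5 class sites, with an interval up to 1.05%, at 1 shared site and at 2 day 6 class sites, too few to compare. Day 6 class sites open on day 5 were the stronger ones, with median IP of 28.0 and 22.0 against 15.0 and 16.0 for those not open.

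Acetylation of histone H3 at lysine 27 (H3K27ac) marks active regulatory regions. It was listed on day 6 at the position of 18.9% of day 5 class, 24.2% of shared and 22.3% of day 6 class sites, and within 100 bp of 32.9%, 48.5% and 57.7%. Its day 5 list, with 24525 peaks against 47275 on day 6, gave 3.14%, 1.52% and 1.61% by position and 19.4%, 9.09% and 5.16% within 100 bp. By position these few sites moved to 5.04% of the day 5 class and 0.917% of the shared class without day 5 replicate 2, and 2.97% of the day 6 class without day 6 replicate 2. Among day 6 class sites, 163 (52.6%) had the mark within 100 bp on day 6 and not day 5, and 0 had it on day 5 and not day 6 (interval up to 1.18%). The other classes leaned the same way, with 26 (39.4%) and 0 shared sites and 71 (20.3%) and 24 (6.86%) day 5 class sites. The coactivator p300 had events of day 5 at 36.6% of day 5 class, 68.2% (55.6% to 79.1%) of shared and 34.2% of day 6 class sites. Its day 6 list was short, with 1337 events against 19398, and lay at 1.14%, 18.2% and 16.1%. Of those few events, then, 4 were at day 5 class sites and 50 at day 6 class sites. The day 5 class share was 2.76% without day 6 replicate 2, and the day 6 class share was 9.11% without day 6 replicate 1, which also took p300 of day 5 at day 6 class sites to 22.5%.

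**Figure D5:**
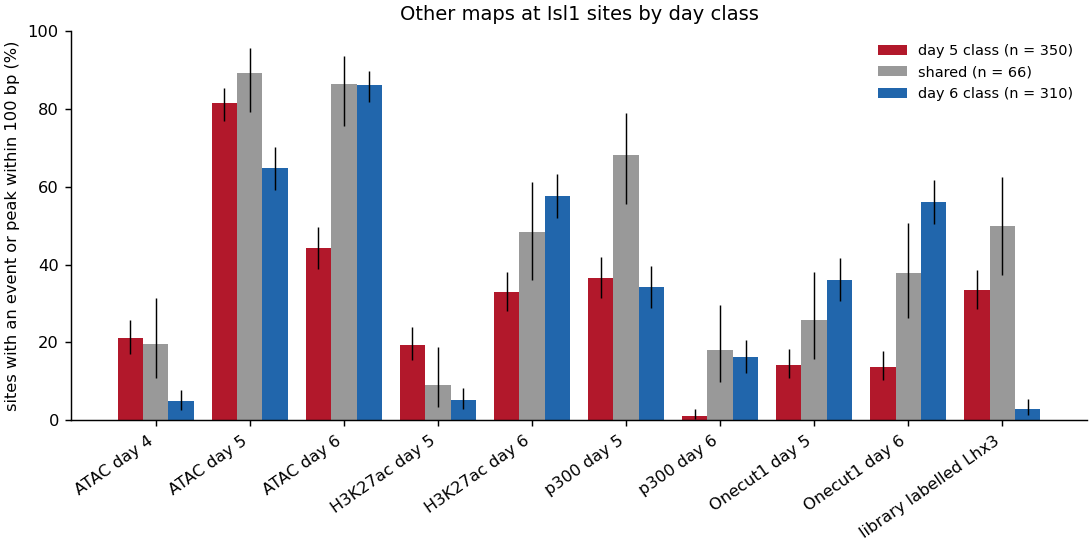
Share of Isl1 sites of the day 5, shared and day 6 classes with a peak or event of another map within 100 bp; error bars are exact binomial 95% intervals, which cover counting error only. ATAC peaks of day 6 are at 44.3%, 86.4% and 86.1% of the 3 classes.

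The same shift was seen list by list, without classes. ATAC peaks of day 6 lay within 100 bp of 41.8% and 47.5% of the events in the day 5 libraries and 79.6% and 74.7% in the day 6 libraries, a difference of 32.5 points that exceeded the spread between replicates (exact permutation, two-sided p = 0.333, the smallest possible). For ATAC peaks of day 5 the shares were 68.5% and 70.5% against 62.7% and 58.4%, a difference of -8.95 points with p = 0.333 by the same exact permutation. H3K27ac of day 6 was at 31.0% and 33.3% against 53.3% and 49.7%. Events of Onecut1 of day 6 were at 16.0% and 18.9% of day 5 events and at 53.7% and 40.1% of day 6 events. Those of Onecut1 of day 5 differed in the same direction, with 15.9% and 17.5% against 34.6% and 26.0%. The Onecut1 list of day 5 held 23245 events and that of day 6 held 63488. For p300 of day 5 the days overlapped, with 30.0% and 36.1% against 33.9% and 30.8%. The library labelled Lhx3 separated replicates as well as days, with 18.0% and 39.2% on day 5 and 6.39% and 17.0% on day 6, so each replicate 2 library stood above the replicate 1 library of its day. Its class shares moved when a library was left out, which also lets in sites called in only 1 library of that day. It was at 33.4% of the 350 day 5 class sites but 13.3% of the 1807 without day 5 replicate 2. Among sites called in day 5 replicate 1 alone it was at 8.49%, and in day 5 replicate 2 alone at 31.5%. At day 6 class sites its 2.90% became 5.98% without day 5 replicate 1, 6.20% without day 6 replicate 1 and 1.48% without day 6 replicate 2.

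Sites seen in more libraries lay more often at some of the other maps. From sites called in 1 library to those called in all 4, the share within 100 bp of an ATAC peak of day 5 was 54.4%, 71.6%, 89.0% and 89.4%. For p300 of day 5 it was 21.7%, 36.8%, 54.7% and 68.2%, and for the library labelled Lhx3 8.91%, 23.2%, 38.7% and 50.0%. H3K27ac of day 5 did not follow this order, with 9.93%, 12.1%, 8.29% and 9.09%. Onecut1 of day 5 (19.2%, 24.1%, 38.7% and 25.8%), Onecut1 of day 6 (28.0%, 31.5%, 43.1% and 37.9%) and H3K27ac of day 6 (36.6%, 43.5%, 51.4% and 48.5%) were highest at sites called in 3 libraries. ATAC of day 2, DNase of day 0, H3K27ac of day 4 and Ngn2 did not rise in order either.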

How the data were processed

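The 4 Isl1 lists were used as the authors deposited them. Per the file headers, each holds, for an event, the signal assigned as precipitated (IP) and scaled control reads, their fold ratio (9999.9 where the control is 0), and −log10 p-values and −log10 q-values. The lowest deposited −log10 q was 2.00. ATAC and H3K27ac peaks came with a score per peak, deposited by the authors and not used. RNA was the authors' deposited FPKM. Tools listed without a role in the submitters' processing notes are STAR, MACS, HOMER 4.7.2 and Bowtie 0.12.7, and the build is mm9. Gene annotation and sequence of mm9 were not used here, so sites are given by position only.

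Lists were compared with Python 3.11.15 and scipy 1.17.1. Only the counts of matched events, clusters and class sites were checked on simulated lists. Events were matched one to one within 100 bp by rising distance. Sites were built from the most significant event down, each further event joining the strongest site within 100 bp. A library called a site with an event within 100 bp of its position. Peaks were counted by overlap with the position and, added after seeing the data, within 100 bp, and events of other maps within 100 bp. Libraries were compared by exact permutation, over 3 splits of the pairs or 2 libraries against 2. Correlations and classes carry no test. A gene counted as measured at 1 FPKM on either day. The 12 best shared sites, 8 sites of each day class, 5 sites per direction of rank shift, 5 largest clusters and regions, and the strongest event of each list were eligible to be named, along with sites beside them, which were chosen after their values were seen. The members and lists were chosen with earlier results of these data known. Alternatives were other match distances, stricter lists, other ranks and gaps, and leaving out each library. The control samples were not used here. The other maps entered only as positions at Isl1 events and sites. A list of RNA markers is not reported here.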

Additional observations from a re-analysis of the deposited data

How the results depend on the processing

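The differences between within-day and between-day pairs kept their sign under every alternative run, except for the correlation with fold over control. Union overlap gave 8.93 to 15.4 points, the matched share of the strongest events 30.6 to 40.1 points, and the correlation of IP 0.10 to 0.174 apart from -0.222 with fold. Leaving out each library in turn gave 9.09 to 13.1 points, 32.1 to 39.5 points and 0.0886 to 0.194. The exact permutation p over libraries was never below 0.333, so these values have no call to lose.

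The labels do not say what a replicate number marks. Over the 66 shared sites, the deviations of same-numbered libraries had r = 0.122, from only 2 pairs, and the numbers were not taken as pairing. With the replicate block (same-numbered between-day pairs only), the differences were 9.37 points, 0.10 and 32.6 points. The block left the spacing difference at 0.755 points as a mean of -1.71 and 3.22 points, and that within 200 bp at 4.34. With the same-numbered day 5 library as target, 17.7% of day 6 events lay within 100 bp, at a median of 277 kb.

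The spacing difference within 1000 bp had no stable sign: it was -0.0931 points with gaps up to 5000 bp and -0.969 to 2.48 points without 1 library, against 2.95 to 5.73 points within 200 bp. The share of day 6 events within 100 bp of day 5 was 15.4% to 27.9% without 1 library. Their median distance of 120 kb moved to 191 kb with the strongest 1000 events, 249 kb with a −log10 q of at least 3, 172 kb with events at ATAC peaks (all shorter lists) and 109 to 443 kb without 1 library.

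A −log10 q of at least 3 left 199 day 5, 34 shared and 184 day 6 class sites. Leaving out each library, which also relaxes the calls of its day, gave 374 to 1807, 90 to 149 and 338 to 1146. In the same runs ATAC of day 5 lay at 33.7% to 43.5% of day 5 class and 26.4% to 37.6% of day 6 class sites, ATAC of day 6 at 16.2% to 21.9% and 40.5% to 45.6%, H3K27ac of day 6 at 16.5% to 19.0% and 21% to 25.4%, and p300 of day 5 at 24.4% to 40.1% and 22.5% to 36.4%. Widening to 100 bp gave 81.4% and 64.8%, 44.3% and 86.1%, and 32.9% and 57.7% for the first 3 maps. At 500 bp these were 91.4% and 69.4%, 54.3% and 91.6%, and 53.4% and 83.2%, and p300 was at 46.6% of day 5 class sites. Read totals per library were not among the sources used here, so an event missing from a list may lie under its threshold.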
